A study of Drosophila melanogaster with 9 samples.

Results

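The proteasome subunit genes were followed in RNA from whole adult heads of Drosophila melanogaster. They were taken by name from the authors' deposited tables, as every gene called Prosalpha, Prosbeta, or Rpn or Rpt followed by a digit, which gave 47 of 17478 genes. Of these, 32 encode the general subunits, 14 in the core particle, 10 in the base and 8 in the lid of the regulatory particle, and 15 are testis-type paralogues, whose names add a T or an R to that of a general subunit (Prosalpha4T2, Rpt3R). Names that merely end in the subunit number 2, such as Rpn2 or Prosalpha2, belong to general subunits. The flies were 3 to 5 days old, untreated and on standard food, and came in 3 groups of 3 libraries: wild type, kdm5[A512P] and kdm5[JmjC*]. KDM5 acts on chromatin, where it takes methyl groups off histone tails. In kdm5[A512P] an alanine of KDM5 is changed to proline, as a counterpart of a human missense change in intellectual disability, and in kdm5[JmjC*] the demethylase is inactive. How the alleles were introduced, whether a group's libraries came from separate collections of flies, and the sex of the flies are each not given in the sources used. The p-values thus reflect the spread among these libraries alone, and that spread may be technical. Each table compares a mutant with the same wild-type libraries and gives no values per library, so the level of a gene is its mean normalized count over all libraries.

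The proteasome degrades proteins that have been tagged with ubiquitin. Its core particle is a barrel of stacked rings: the alpha subunits form the outer rings, which gate the entrance, and the beta subunits form the inner rings, of which Prosbeta1, Prosbeta2 and Prosbeta5 carry the caspase-like, trypsin-like and chymotrypsin-like cutting sites. The regulatory particle sits on the end of the barrel. Its base holds a ring of ATPases (Rpt1 to Rpt6) that unfold substrates, the scaffolds Rpn1 and Rpn2 and the ubiquitin receptors Rpn10 and Rpn13, which are counted with the base here. Its lid holds Rpn11, which takes ubiquitin off the substrate, and further Rpn subunits. Drosophila has duplicated copies of several subunits that are expressed mainly in the male germ line.

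The general subunits were expressed at similar levels, and the testis-type paralogues close to 0. By the authors' deposited tables, 31 of the 32 general subunits had mean normalized counts between 1247 (Prosbeta4) and 4352 (Rpn2). Per kb of exon these 31 genes lay between 1176 (Rpn9) and 2329 (Prosalpha2), a 1.98-fold range, where the quartiles of the 11608 genes tested in both tables differed 11.8-fold. The median level per kb was 1550 for the core, 1469 for the base and 1357 for the lid, so the particles stood close to each other. Together the general subunits held 0.189% of the summed mean normalized counts.

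The members with the highest counts in each particle were not always the highest per kb. In the core, the alpha ring subunit Prosalpha2 had a mean normalized count of 2142, the trypsin-like Prosbeta2 2112 and the chymotrypsin-like Prosbeta5 1923 in the authors' deposited tables. In the base, the large scaffolds Rpn2 and Rpn1 reached 4352 and 4003 and the ATPase Rpt2 2830 in the same authors' deposited tables. Yet Rpn2 and Rpn1 have exons of 3412 and 3041 bases, and per kb they stood at 1276 and 1316, under Rpt2 at 1741. In the lid, Rpn6, a scaffold that bridges lid and core, had a mean normalized count of 3898, Rpn5 2803 and Rpn3 2194 in the authors' deposited tables. Per kb Prosalpha2 (2329) was the highest of the core and Rpn6 (2004) of the lid, with Rpn3 (1198) and Rpn9 the lowest there.

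**Figure D1:**
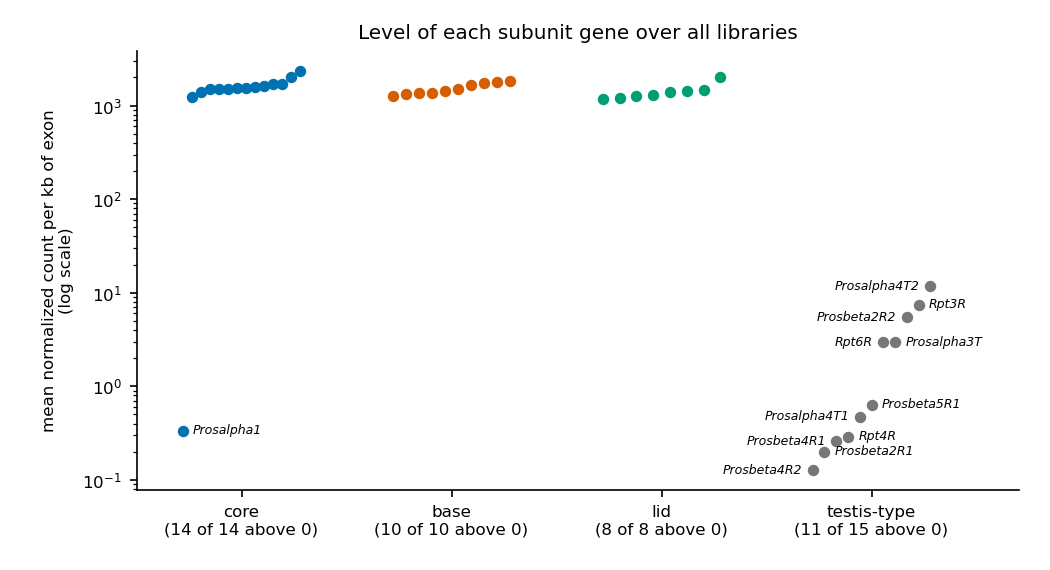
Mean normalized count per kb of exon for each subunit gene above 0 (log scale; 1 point per gene, over all libraries, so no error bar can be drawn), by particle. The core, base and lid genes lie between 1176 and 2329 except Prosalpha1 at 0.335, and the testis-type paralogues do not exceed 11.8; the 4 paralogues at 0 are not drawn.

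Prosalpha1 was the exception among the general subunits. This outer ring subunit had a mean normalized count of 0.325 in the authors' deposited tables, against 1448 to 2142 for the 6 other alpha subunits, and neither table gave it an adjusted p. Its gene (FBgn0263121; BDGP6.54, chromosome 2R, 7827303 to 7828678, minus strand) lies 1734 bases from CG30382 (7830413 to 7831771, minus strand), a close copy of it that the annotation now names Prosalpha1R. CG30382 had a mean normalized count of 0.643 in the authors' deposited tables, so that both copies summed to 0.968. Between them, CG18853 stood at a mean normalized count of 345 in the authors' deposited tables. How reads that fit both copies were counted is not stated in the labels or headers, so the value of Prosalpha1 is uncertain and it is left out of the comparisons.

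In kdm5[A512P] heads few subunit genes changed beyond the spread between libraries, and nearly all values lay slightly above wild type. The lid subunit Rpn6 and the testis-type paralogue Prosbeta2R2 rose, and 0 members fell. These 2 are 5.71% of the 35 members tested (those with an adjusted p), while 21.0% of all 11608 tested genes were called at an adjusted p under 0.05, 10.2% upward and 10.8% downward. Among the 31 general subunits tested, 30 had a log2 fold change above 0, with a median of 0.090 (1.06-fold), by the authors' deposited table. Over all tested genes 50.6% were above 0 and the median was 0.0027; relative to that median, 26 of the 31 lay above it. The shift was small against the spread of all genes: 27 of the 31 lay inside the quartiles of all genes tested, and 2 had an unadjusted p under 0.05, both upward. Of all 11608 tested genes, 1815 had such a p upward and 1895 downward. The subunit genes share their libraries, so the number of them above 0 is not a number of separate observations.

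Rpn6 (FBgn0028689; BDGP6.54, 2R, 14750166 to 14752910, minus strand) was 1.18-fold higher, with a log2 fold change of 0.23 ± 0.091 (SE) and an adjusted p of 0.0497 in the authors' deposited table. That value lies at the edge of the threshold: with all log2 fold changes centred on the median of the tested genes, its adjusted p was 0.0526. Rpn8, the lid partner of the deubiquitinase Rpn11, followed at 0.17 ± 0.080 (adjusted p = 0.13) in the authors' deposited table. In the alpha ring Prosalpha4 stood at 0.23 ± 0.13 and Prosalpha5 at 0.21 ± 0.14, both short of the threshold in the authors' deposited table. The lowest general subunit was Prosbeta7, at -0.0015 ± 0.13 (adjusted p = 0.997) in the authors' deposited table. Rpn13, Rpt1, Rpn1 and Rpt3, all of the base, were next above it, at 0.0013, 0.0017, 0.0022 and 0.0027 in log2 units in the authors' deposited table.

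In kdm5[JmjC*] heads the lid subunits Rpn6 and Rpn8 and the testis-type ATPase paralogue Rpt3R rose, and 0 members fell. These 3 are 8.57% of the 35 tested members, beside 28.8% of all 11898 tested genes called, 14.2% upward and 14.6% downward. Of the 31 general subunits, 30 again lay above 0 in the authors' deposited table, with a median log2 fold change of 0.14 (1.10-fold), where 51.7% of all tested genes were above 0 with a median of 0.011. The quartiles of the general subunits were 0.11 and 0.20. Of the 31, 23 lay inside the quartiles of the 11608 genes tested in both tables, and 8 above the upper one (0.20). An unadjusted p under 0.05 was found for 5 of the 31, all upward. Of all 11898 tested genes, 2275 had such a p upward and 2278 downward. Here too the subunit genes share their libraries and are not separate observations. Both comparisons share the wild-type libraries, so the same sign in both is not a second observation.

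Rpn8 (FBgn0002787; BDGP6.54, 2R, 24400028 to 24404527, plus strand) was 1.20-fold higher in kdm5[JmjC*], at 0.27 ± 0.080 on the log2 scale (adjusted p = 0.0049) in the authors' deposited table. Rpn6 was 1.17-fold higher, at 0.23 ± 0.091 (adjusted p = 0.0419) in the authors' deposited table, and its adjusted p was 0.0549 after centring on the median of all tested genes. The largest general value was that of the alpha ring subunit Prosalpha4 on the X chromosome, at 0.31 ± 0.13 (adjusted p = 0.0507) in the authors' deposited table, just outside the threshold. Prosalpha5 (0.27 ± 0.14) and Prosalpha2 (0.25 ± 0.12) came next in the core by the authors' deposited tables, without passing. Rpn11, the deubiquitinase of the lid, was the only general subunit under 0 in this comparison, at -0.020 ± 0.12 (adjusted p = 0.927) in the authors' deposited table. The catalytic subunits Prosbeta1, Prosbeta2 and Prosbeta5 stood at 0.22, 0.18 and 0.16 with SEs of 0.10 to 0.14 in the authors' deposited table, and none passed.

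**Figure D2:**
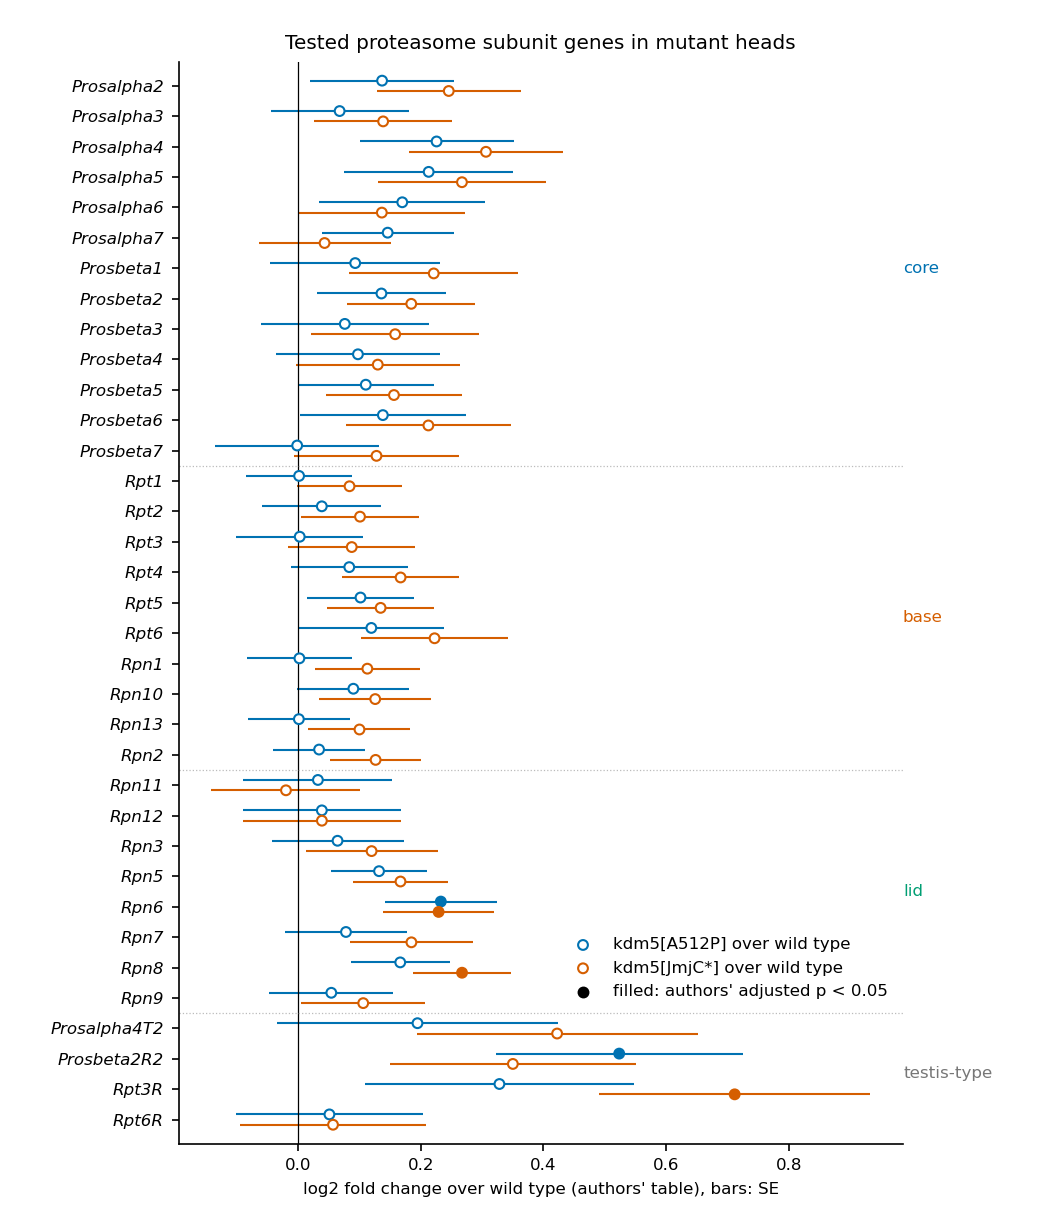
Log2 fold change over wild type of the 35 tested subunit genes in the authors' deposited tables (points) with SE (bars), for kdm5[A512P] and kdm5[JmjC*]; filled points have an adjusted p under 0.05. General subunits sit between -0.020 and 0.31, mostly right of 0, and the called ones are Rpn6 in both comparisons and Rpn8 in kdm5[JmjC*].

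Core and regulatory particle both had medians above 0. In kdm5[A512P] the median log2 fold change by the authors' deposited table was 0.14 over 13 core genes and 0.059 over 18 genes of the regulatory particle, with 0.036 for the base and 0.071 for the lid. In kdm5[JmjC*] it was 0.16 for the core and 0.12 for the regulatory particle, with 0.12 for the base and 0.14 for the lid, by the authors' deposited table. The alpha ring had the highest medians of the rings, 0.16 and 0.19, in kdm5[A512P] and kdm5[JmjC*]. Whether the particles differ was not tested. Across the 31 general subunits log2 fold change and exon length had Spearman correlations of -0.33 in kdm5[A512P] and -0.27 in kdm5[JmjC*]. Over the 2636 tested genes with mean normalized counts of 1247 to 4352 they were -0.21 and -0.088. The core genes are short, and the part of length in these medians was not tested. The calls among general subunits, by the authors' deposited tables, were 1 of 8 lid genes in kdm5[A512P] and 2 of 8 in kdm5[JmjC*], with 0 of 13 in the core and 0 of 10 in the base in either comparison. Among all tested genes 21.0% and 28.8% were called, so nothing is read from where these calls fell, and with the filter on low counts Prosalpha4 of the core was called in kdm5[JmjC*] too (adjusted p = 0.0448). In the core 0 genes in kdm5[A512P] and 2 in kdm5[JmjC*] had an unadjusted p under 0.05, and in the base 0 in either. Over all genes such a p was found for 1815 upward and 1895 downward of 11608 tested in kdm5[A512P]. In kdm5[JmjC*] it was found for 2275 upward and 2278 downward of 11898, so nothing is read from these counts either.

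The 2 mutants were compared through the difference of their log2 fold changes, from which the shared wild type largely drops out. No member passed (normal test, two-sided, adjusted by Benjamini-Hochberg over 11608 genes, smallest adjusted p among the 35 members 0.9997), while 102 of all genes, 0.879%, did. The count at an unadjusted p under 0.05 was 0 of the 35 members as well, beside 595 of all 11608 genes. Most general subunits were somewhat higher in kdm5[JmjC*] than in kdm5[A512P]: 27 of 31, with a median difference of 0.071 on the log2 scale, where 50.7% of all genes and a median of 0.0025 were found. All 7 beta ring genes and all 10 base genes were on that side, against 4 of 6 in the alpha ring and 6 of 8 in the lid. These genes share their libraries, so such counts describe the genes and are not that many separate observations. The largest positive differences were 0.13 for Prosbeta7 (95% interval -0.24 to 0.50) and Prosbeta1, and the largest negative one was -0.10 for Prosalpha7 (-0.40 to 0.20). Rpn6 hardly differed, at -0.0036 (-0.25 to 0.25). Across the general subunits the intervals reached from -0.41 to 0.51 at their widest bounds, and a missed threshold does not show that the alleles act alike.

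**Figure D3:**
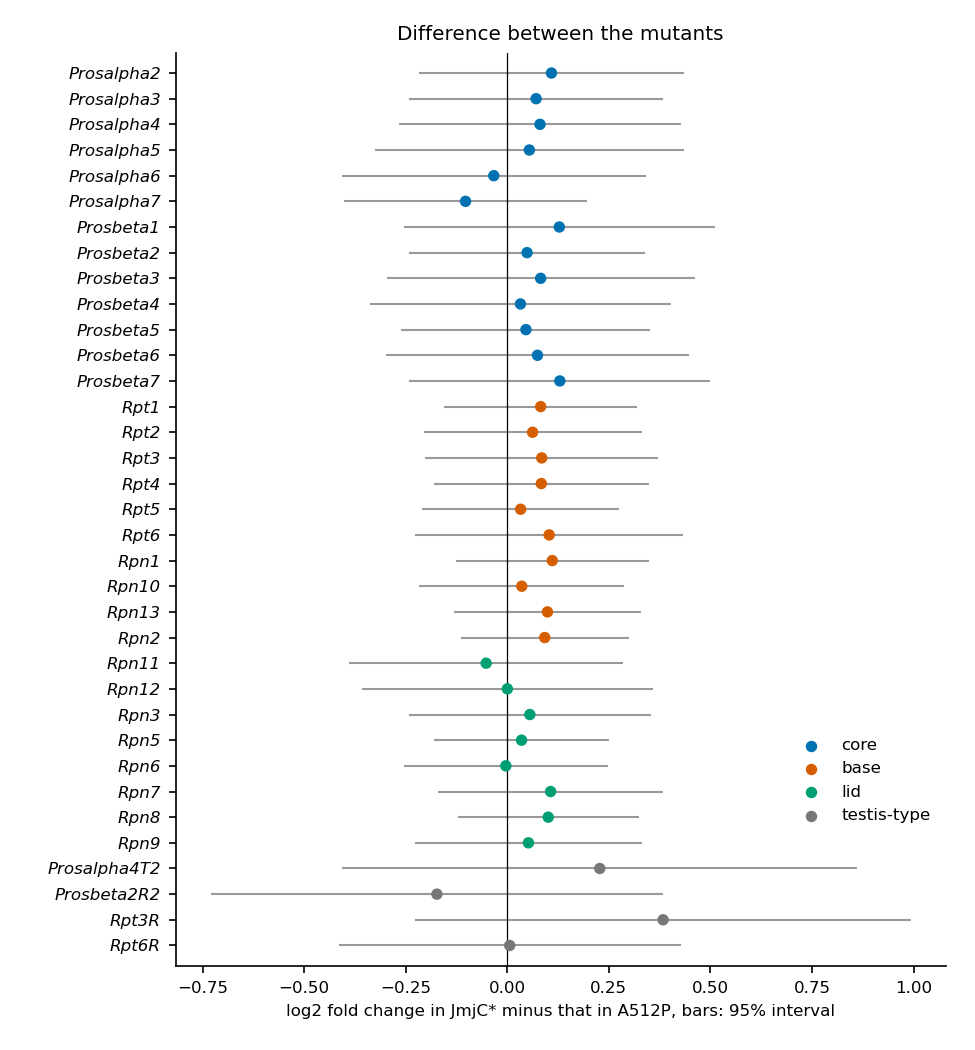
Log2 fold change in kdm5[JmjC*] minus that in kdm5[A512P] for the 35 tested members (points, coloured by particle) with 95% intervals (bars). Every interval spans 0, and 27 of the 31 general subunits lie to the right of it.

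The testis-type paralogues contributed almost no RNA in heads. Of 15, 4 were listed at 0 (Prosalpha6T, Prosbeta5R2, Rpn12R, Rpn13R), 6 had mean normalized counts from 0.209 to 0.704 (Prosbeta4R2, Prosbeta2R1, Prosbeta4R1, Prosalpha4T1, Rpt4R, Prosbeta5R1), and 5 lay above 1, by the authors' deposited tables. The 15 summed to 41.9 mean normalized counts, against 66632 for the general subunits. Prosalpha4T2 was the highest, at 14.8 in the authors' deposited tables, which is 1.02% of the count of Prosalpha4. Rpt3R (10.9), Prosbeta2R2 (7.21), Rpt6R (4.25) and Prosalpha3T (2.62) followed in the authors' deposited tables, at 0.159% to 0.468% of their general partners. Their gene structures were also plainer: the longest transcript by exon number had 1 exon in 6 of the paralogues and 2 in 5, while 24 of the 32 general genes had 3 or more exons in BDGP6.54. On the arm of their general partner lay 5 of the 15.

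Of the paralogues, 4 had enough counts to be tested, so their calls say nothing of the other 11. Prosbeta2R2, a copy of the trypsin-like subunit (FBgn0037296; 3R, 5217751 to 5219528, minus strand), was 1.44-fold higher in kdm5[A512P] (log2 0.52 ± 0.20, adjusted p = 0.0459) in the authors' deposited table. In kdm5[JmjC*] it stood at 0.35 ± 0.20 (adjusted p = 0.188) in the authors' deposited table. Rpt3R, a copy of an ATPase of the base (FBgn0037742; 3R, 9754735 to 9756510, minus strand), was 1.64-fold higher in kdm5[JmjC*] (log2 0.71 ± 0.22, adjusted p = 0.00672) and stood at 0.33 ± 0.22 (adjusted p = 0.312) in kdm5[A512P] in the authors' deposited tables. The 95% interval of the difference between the mutants (kdm5[JmjC*] minus kdm5[A512P]) spanned 0 for both, from -0.23 to 0.99 for Rpt3R and from -0.73 to 0.38 for Prosbeta2R2. Exons of Rpt3R share 20 bases with those of Alg12 on the other strand, which had a mean normalized count of 1835 and log2 fold changes of -0.014 and -0.024 in kdm5[A512P] and kdm5[JmjC*] in the authors' deposited tables. Whether counting used the strand is not stated, and the value of Rpt3R is therefore uncertain. Prosalpha4T2 was at 0.19 ± 0.23 and 0.42 ± 0.23, and Rpt6R at 0.051 ± 0.15 and 0.057 ± 0.15, in the authors' deposited tables for kdm5[A512P] and kdm5[JmjC*], none past the threshold.

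Markers of the testis were weak but not uniform in these libraries. Of 29 such genes in the tables, 20 had a mean normalized count under 5, among them the protamine genes ProtA (0.218) and ProtB (listed at 0) and dj (1.34), by the authors' deposited tables. Of the 10 tested, 0 rose and 1 fell in kdm5[A512P], and 3 rose and 2 fell in kdm5[JmjC*], beside 21.0% and 28.8% of all tested genes called. Rises in kdm5[JmjC*] were those of the germ line helicase gene vas (log2 1.03 ± 0.23), the sperm chromatin gene Mst77F (0.89 ± 0.21) and mia (0.50 ± 0.15) in the authors' deposited table. Their mean normalized counts were 20.6, 54.5 and 161. In kdm5[A512P] vas stood at -0.027 ± 0.23, but its difference between the mutants did not pass (adjusted p = 0.11). The testis-specific factor gene can fell in both, by 1.11 ± 0.22 and 1.15 ± 0.22 in kdm5[A512P] and kdm5[JmjC*], and bol, which at a mean normalized count of 7176 is no weak gene in heads, was at -0.29 ± 0.12 in kdm5[JmjC*] (adjusted p = 0.0489), in the authors' deposited tables. The adjusted p of bol in kdm5[JmjC*] was 0.0619 with the adjustment run over every gene with a p-value. The part of these testis markers in the values of Rpt3R and Prosbeta2R2 was not tested. Markers of head tissue were high: the photoreceptor opsin gene ninaE had a mean normalized count of 756320, the neuronal genes nSyb and elav 38025 and 7366 and the glial gene repo 2184 in the authors' deposited tables. Of 6 head markers, 3 were called downward in kdm5[A512P] by the authors' deposited table (ninaE, nSyb, repo at log2 -0.24, -0.27 and -0.28). In kdm5[JmjC*] 2 were (nSyb -0.24, repo -0.20), and ninaE stood at -0.084. Over all tested genes 10.8% and 14.6% were called downward. The neuronal genes elav, Syt1 and brp were called in neither mutant. They stood at 0.030, -0.16 and -0.14 in kdm5[A512P] and at -0.033, -0.21 and -0.23 in kdm5[JmjC*] in the authors' deposited tables. The adjusted p of repo in kdm5[JmjC*] was 0.0579 with the adjustment run over every gene with a p-value. In whole heads fewer cells of a type and less RNA per cell cannot be told apart, and the part of these markers in the subunit values was not tested.

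Among the general subunits the shorter genes had the larger SE. In kdm5[JmjC*] the median SE was 0.13 over 15 general subunits with under 1393 bases of exon, their median, and 0.091 over 16 longer ones, by the authors' deposited table. Over all 2636 tested genes in the same count range (1247 to 4352), the median SE was 0.12 for 393 short and 0.090 for 2243 long genes. Across the 31 general subunits SE and length had a Spearman correlation of -0.84, against -0.16 over the 2636 genes, and SE and count one of -0.82, as a description over genes that share their libraries. Count and length moved together (0.84), so the 2 cannot be separated within the proteasome. All 13 tested core genes lie under 1393 bases, between 815 (Prosbeta4) and 1215 (Prosbeta7). Short against long is thus nearly the same split as core against regulatory particle, and these cannot be separated either. The median SE was 0.13 for the core against 0.089 for the base. At the lowest score that was called in kdm5[JmjC*] (2.45), a general subunit had to change by 1.14-fold to 1.26-fold to pass, and in kdm5[A512P] (2.56) by 1.14-fold to 1.28-fold. The medians of 1.06-fold and 1.10-fold lie below these bounds, so a shift of that size was not detectable gene by gene.

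**Figure D4:**
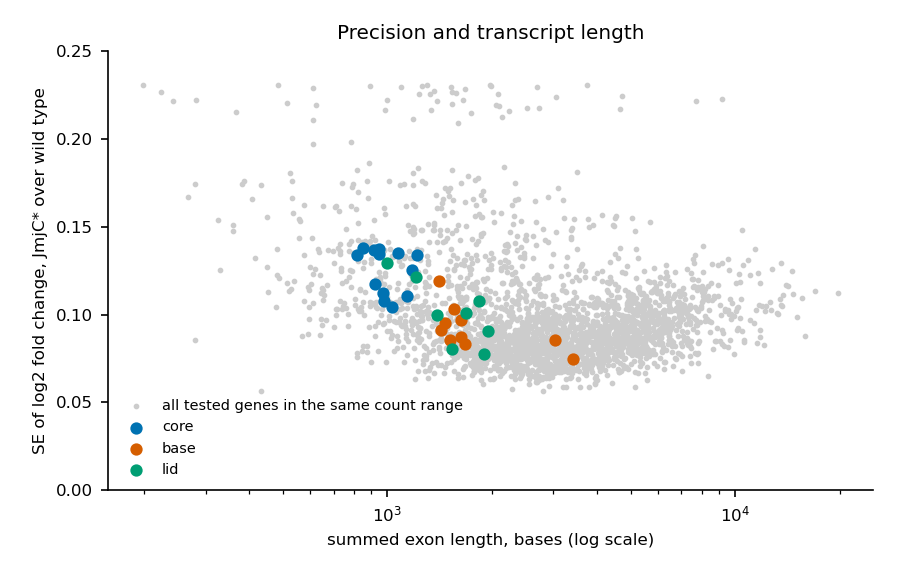
SE of the log2 fold change in kdm5[JmjC*] (linear axis from 0) against summed exon length in bases (log axis), for general subunits (coloured by particle) and all tested genes with mean normalized counts of 1247 to 4352 (grey). Core genes gather at the short, less precise end, with a median SE of 0.13, and base genes have a median of 0.089.

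Genes that work beside the proteasome moved in both directions. Sem1, a small lid subunit outside the name rule, stood at log2 0.13 ± 0.15 and 0.18 ± 0.15 in kdm5[A512P] and kdm5[JmjC*] in the authors' deposited tables, without passing. Of 10 assembly and accessory factors, 2 rose in kdm5[A512P] and 1 in kdm5[JmjC*], and 0 fell in either (medians 0.064 and 0.15), beside 10.2% and 14.2% of all tested genes called upward. Usp14, a deubiquitinase that docks on the proteasome, was at 0.23 ± 0.085 (adjusted p = 0.0329) and 0.24 ± 0.084 (0.0204), and the shuttle factor Ubqn at 0.19 ± 0.070 (0.0339) and 0.16 ± 0.070 (0.0727), in the authors' deposited tables. The core assembly chaperone Pomp was at 0.26 ± 0.13 and 0.20 ± 0.13 by the authors' deposited tables, without passing.

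Fly counterparts of enzymes that process transcription factors of the proteasome genes in other animals rose in both mutants. In worms and mammals the relatives of cnc are made active by a Ddi1 protease and a peptide N-glycanase, whose fly counterparts are rngo and Pngl. Whether these act on cnc in the fly heads was not tested. Of the 6 genes listed here with cnc, 3 were called upward in each mutant (rngo, Pngl and Xbp1) and 0 downward. Over all tested genes 10.2% and 14.2% were called upward in kdm5[A512P] and kdm5[JmjC*]. In the authors' deposited tables rngo was at log2 0.30 ± 0.077 (adjusted p = 9.86e-04) in kdm5[A512P] and 0.39 ± 0.077 (5.43e-06) in kdm5[JmjC*]. Pngl was at 0.20 ± 0.076 (0.0402) and 0.36 ± 0.076 (2.38e-05) in the same order of the authors' deposited tables. With the adjustment run over every gene with a p-value, the adjusted p of Pngl in kdm5[A512P] was 0.0520. Xbp1, a factor of the response to unfolded proteins and not one of these enzymes, was at 0.20 ± 0.073 (0.0363) and 0.22 ± 0.073 (0.0123) in the authors' deposited tables. The factor gene cnc itself, with a mean normalized count of 11050, stood at 0.078 ± 0.066 and 0.13 ± 0.066 in the authors' deposited tables, neither called. Keap1 and maf-S, also listed, stood at 0.012 and -0.011 in kdm5[A512P] and at -0.075 and -0.068 in kdm5[JmjC*], not called.

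Of 13 tested genes of ubiquitin supply, 0 rose and 2 fell in kdm5[A512P], and 1 rose and 3 fell in kdm5[JmjC*], beside 21.0% and 28.8% of all tested genes called, with median log2 fold changes of -0.0035 and 0.021. RpL40 and RpS27A, which encode ubiquitin fused to a ribosomal protein, fell by 0.30 ± 0.098 and 0.31 ± 0.11 in kdm5[A512P] and by 0.31 ± 0.098 and 0.45 ± 0.11 in kdm5[JmjC*] in log2 units in the authors' deposited tables. The polyubiquitin gene Ubi-p5E stood at -0.0017 ± 0.059 in kdm5[A512P] and rose by 0.25 ± 0.059 (adjusted p = 2.00e-04) in kdm5[JmjC*] in the authors' deposited tables, but the difference between the mutants did not pass (adjusted p = 0.183). The conjugating enzyme gene ben was at -0.18 ± 0.073 (adjusted p = 0.0436) in kdm5[JmjC*] in the authors' deposited table. Its adjusted p was 0.0551 with the adjustment run over every gene with a p-value.

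Npl4 and Ufd1-like, partners of the ATPase TER94 that pulls ubiquitinated proteins out of complexes, fell in both mutants. Npl4 was at log2 -0.64 ± 0.093 (adjusted p = 2.94e-10) in kdm5[A512P] and -0.39 ± 0.092 (2.29e-04) in kdm5[JmjC*] in the authors' deposited tables. Its binding partner Ufd1-like was at -0.25 ± 0.091 (0.0327) and -0.26 ± 0.091 (0.0184) in the authors' deposited tables, while TER94 itself stood at 0.13 ± 0.093 and 0.12 ± 0.093, not called. No other of the 7 genes passed, so that 2 of 7 fell in each mutant, beside 10.8% and 14.6% of all tested genes called downward.

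In the COP9 signalosome, a complex built on the plan of the proteasome lid, 2 of 8 tested genes rose in kdm5[A512P] and 3 in kdm5[JmjC*], with 0 falls, beside 10.2% and 14.2% of all tested genes called upward. CSN5, the counterpart of Rpn11, was at log2 0.26 ± 0.086 (adjusted p = 0.0165) and 0.38 ± 0.086 (1.22e-04) in the authors' deposited tables. CSN3 was at 0.29 ± 0.082 (0.00365) and 0.25 ± 0.082 (0.0107), and CSN6, the counterpart of Rpn8, at 0.076 ± 0.099 (0.65) and 0.33 ± 0.098 (0.00522) in the authors' deposited tables. The medians over the 8 genes were 0.095 and 0.14, near those of the general subunits. No member of these lists differed between the mutants at an adjusted p under 0.05.

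**Figure D5:**
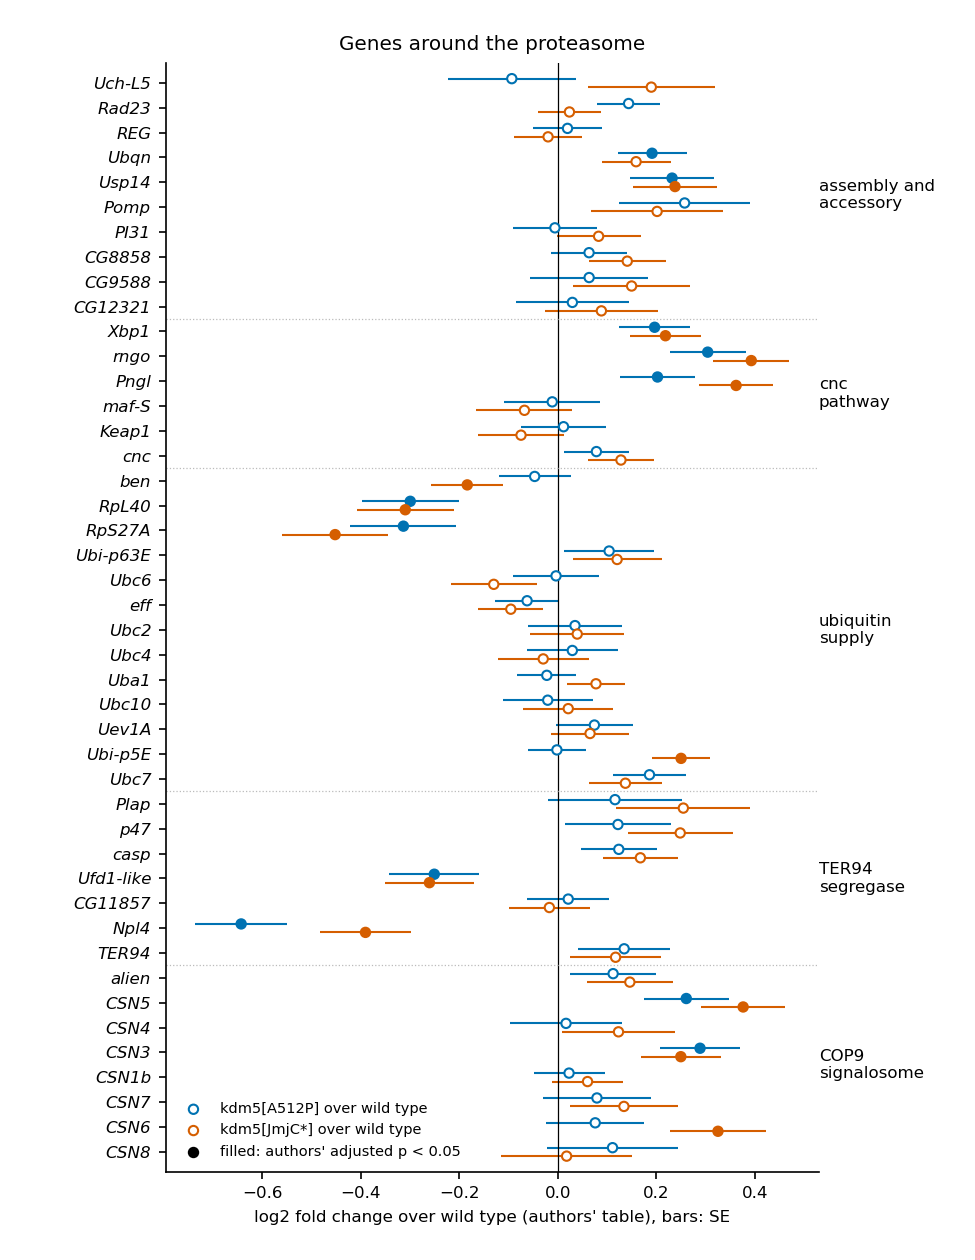
Log2 fold change over wild type (points) with SE (bars) in the authors' deposited tables for genes that assemble, assist, regulate or supply the proteasome, and for the COP9 signalosome; filled points have an adjusted p under 0.05. Npl4 lies farthest left, at -0.64 in kdm5[A512P], and rngo farthest right, at 0.39 in kdm5[JmjC*].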

How the data were processed

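The data are 2 tables in which the authors compared each mutant with wild type, at 3 libraries a group. Per the submitters' processing notes STAR and DESeq2 were used; no version, setting, build or annotation is stated there. Per the file headers, the deposited signal is a mean normalized count (DESeq2's baseMean), the log2 fold change has a standard error, the score is the Wald statistic, and each p-value and adjusted p-value is the authors'. Scores equalled the fold change over its SE to within 1.21e-13. A gene counts as tested where the table gives an adjusted p. The SEs of genes with counts near 0 are small, so their fold changes are shrunken towards 0. Depth per library is unknown here.

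Calls were made at an adjusted p under 0.05. The mutants were compared by subtracting their log2 fold changes and dividing by the root of the summed squared SEs (normal test, two-sided, Benjamini-Hochberg over all genes tested in both); this SE is an upper bound because the wild type is shared. The test was tried on simulated data with changes larger than the difference of any member, so that trial says nothing of differences as small as theirs. Values were given for called or differing members, the 3 highest counts of each particle, the extremes, paralogues above 0, and called genes of the other lists; further genes were chosen after their values were seen. Members and lists were chosen with earlier results of these data known. Alternatives were a threshold of 0.01, no count filter, a mean normalized count of at least 50, median centring, and a correlation of 0.5 between the comparisons. All 47 members had the same exon length in BDGP6.54 (Ensembl). Python 3.11.15, pandas 2.3.3 and scipy 1.17.1 were used. No sequences are shown.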

Additional observations from a re-analysis of the deposited data

How the results depend on the processing

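The members called in kdm5[A512P] numbered 2. They numbered 0 at an adjusted p under 0.01 and 0 with the adjustment run over every gene with a p-value, where Rpn6 had an adjusted p of 0.0644 and Prosbeta2R2 of 0.0595. They numbered 1 (Rpn6) among genes with a mean normalized count of at least 50, and 1 (Prosbeta2R2) after centring on the median of all tested genes. In kdm5[JmjC*] the 3 calls became 2 under the stricter threshold, the wider adjustment and the centring, each time without Rpn6, and stayed at 3 with the count filter, where Prosalpha4 (adjusted p = 0.0448) took the place of Rpt3R. The causes were not tested, beyond the number of genes each adjustment covers. The medians of the general subunits lay between 0.087 and 0.090 in kdm5[A512P] and between 0.13 and 0.14 in kdm5[JmjC*] under the count filter and the centring. Neither setting could move them much. The filter removes none of the tested general subunits, whose lowest count is 1247, and centring only subtracts 0.0027 and 0.011. No member differed between the mutants under any of the 4 alternatives, the smallest adjusted p being 0.495 with a correlation of 0.5 for the shared controls. Over the single genes called under any setting, 130 alternative values kept their side of the threshold, 28 lost their call, 1 gained it and none changed sign. In a count added after seeing the data, centring turned Rpn13, Rpt1, Rpn1 and Rpt3 negative in kdm5[A512P], leaving 26 of 31 above 0, against 30 before; in kdm5[JmjC*] 30 stayed above 0. No paired analysis was possible because the tables carry no values per library; for the same reason no library could be left out in turn, and whether 1 library carries a call is unknown here.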

Other observations

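The general subunits on the X chromosome (Prosalpha4, Rpt3, Rpt4 and Rpt6) had median log2 fold changes of 0.10 in kdm5[A512P] and 0.19 in kdm5[JmjC*], and the 27 tested on autosomes 0.090 and 0.13, by the authors' deposited tables. Exons of 15 of the 47 members overlap exons of another gene in BDGP6.54.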
